A study of Homo sapiens with 24 samples.

Results

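The replication-dependent histone genes code for the H1, H2A, H2B, H3 and H4 proteins that package newly made DNA. They were taken as every protein-coding gene whose symbol belongs to the clustered H1, H2A, H2B, H3 or H4 series, with 19 pseudogenes of the same name form left out. Of 57820 genes in the deposited gene table, 37 met this rule: 6 H1, 9 H2A, 11 H2B, 7 H3 and 4 H4 genes. Another 35 genes of the same families were present only in the deposited transcript table, which brings the set to 72 in the GENCODE 29 annotation.

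HUES6, a human embryonic stem cell line, was grown in FTDA medium as cells labelled WT and cells labelled KO for RBPMS, which codes for an RNA-binding protein. Cells were sampled at 0 h with no inducer (labelled control) and after 3, 6 and 48 h of mesoderm induction with 1.5 ng/ml BMP4 and 1.5 µM CHIR, a pair of inducers that both genotypes received alike. Each of the 8 groups had 3 libraries, 24 in all. The labels do not say how the knockout was made, how many clones it rests on, or whether the 3 libraries per group are separate cultures. P-values therefore measure only the spread between these libraries.

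Most messages of these genes end without a poly(A) tail. Their 3′ end is instead a short stem-loop that is bound by SLBP and cut with the help of the U7 snRNP, and the messages accumulate in S phase and are degraded when DNA synthesis stops. A minor share runs past the stem-loop to an ordinary polyadenylation signal, often in cells that leave the cycle. The libraries were made with a kit that selects RNA by its poly(A) tail, so the values below describe the histone RNA retained by such a selection and not the whole pool of histone messages.

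Library depth was 29896358 to 50451908 reads, so that the floor of 3 reads lies between 0.0595 and 0.1003 CPM (read counts scaled to a common library total, not divided by gene length). RBPMS RNA does not check the labels: it was 155, 121 and 130 CPM in the WT against 158, 153 and 153 CPM in the KO libraries at 0 h, and the KO libraries were higher (log2 difference 0.25, limma adjusted p = 0.039). WT and KO are therefore used below as the labels give them. Pluripotency markers summed to between 6158 and 7133 CPM in every 0 h library, and primitive streak markers rose from at most 1.67 CPM at 0 h to 1655 to 1840 CPM in WT and 1045 to 1171 CPM in KO cells at 48 h. The first WT library at 0 h stood apart from its mates. It lay closer to the KO mean than to its own mates in 21 of 23 tested histone genes, against 64.3% of all genes tested. The third KO library at 3 h and the third WT library at 48 h also stood apart, and the main counts that rest on these libraries are also given without them. A list of 5 markers of fibroblasts and feeder cells, 3 of them with enough reads to be tested, summed to 418 CPM or more in every library. The sum was 868 CPM in the first WT library at 0 h and 488 and 497 CPM in its mates. In the KO libraries at 0 h it was 631 to 661 CPM. COL1A1 of this list did not share the excess of the first WT library, at 154 CPM there and 127 and 158 CPM in its mates. The KO libraries held 264 to 282 CPM of COL1A1. Markers of amnion and trophoblast summed to 77.2 CPM in the first WT library against 21.5 and 23.8 CPM in its mates and 25.6 to 27.7 CPM in the KO libraries. CDX2 of this list did not share that excess, at 0, 0 and 0.0272 CPM in the WT libraries at 0 h and 0 CPM in the KO libraries. These sums do not show that such cells were present, and their part in the histone values of that library was not tested.

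The stem-loop was looked for in every GENCODE 29 transcript as the 16-base pattern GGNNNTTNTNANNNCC with at least 5 of its 6 stem pairs intact, on the transcript strand. It was present in 1829 of 206694 transcripts (0.885%) and in a transcript of 33 of the 72 histone genes. For the other 39 genes no model held these letters, among them H1-2 and H2BC12, whose models of 642 and 381 bases end at the coding sequence. In 26 genes a model ran more than 50 bases past the stem-loop, and in 16 of these such a model also held AATAAA or ATTAAA in its last 50 bases. H2BC10, counted among the 33 and the 26, matched with 5 stem pairs at base 180 of its 381-base model. That match is likely not a 3′ stem-loop. The sites below belong to the genes whose values the results turn on, with the 16-base stem-loop in capitals and 5 bases on each side.
H2AC6: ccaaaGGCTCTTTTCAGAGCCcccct
H2BC21: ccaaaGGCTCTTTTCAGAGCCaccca
H2AC11: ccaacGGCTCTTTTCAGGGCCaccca
H2AC25: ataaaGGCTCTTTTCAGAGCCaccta
H4C16: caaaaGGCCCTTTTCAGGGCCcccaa
H4C8: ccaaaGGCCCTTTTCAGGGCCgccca
H3C6: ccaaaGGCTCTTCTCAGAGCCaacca

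The most frequent core, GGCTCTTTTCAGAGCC, was shared by 17 genes, among them H2AC6, H2BC21 and H2AC25. H4C16 and H4C8 carried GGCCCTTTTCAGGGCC, which 5 genes held. The H2AC11 core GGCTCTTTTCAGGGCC and the H3C6 core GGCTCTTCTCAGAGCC were each found in 1 gene. In GENCODE 29 on GRCh38, the H2AC6 stem-loop lies at chr6:26124669-26124684 on the plus strand, and a 1668-base H2AC6 model continues for 1128 bases after it, with a polyadenylation signal 29 bases from its end. The H2BC21 stem-loop lies at chr1:149886188-149886203 on the minus strand, with 1729 bases of its model after it and a signal 24 bases from the end. The corresponding tails were 1761 bases in H2AC11, 390 in H2AC25, 1510 in H4C16, 1655 in H4C8 and 1862 in H3C6. These genes therefore have annotated forms that extend past the stem-loop.

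Transcript counts gave a partial view of which forms were read. Over the 24 libraries the models of the 72 genes held 72467 counts, of which 18081 fell in 36 models running more than 50 bases past the stem-loop, 15821 in 11 models ending within 50 bases of it and 38565 in 54 models without the pattern. The 18081 include 79 counts of H2BC10, whose match is likely not a 3′ stem-loop. Of the 15821, 10296 were in H4C11, 3807 in HIST2H2AA4 and 855 in HIST2H2AA3, which share 82.2%, 97.2% and 100% of their 31-base words with other genes, so that most of this figure cannot be assigned to 1 gene. H2BC5 had 602 counts in its 2-exon model, which lacks the stem-loop and ends 25 bases after a signal, and 4 in its 1-exon model, which has it. H2BC4 was split in the same way, with 247 counts in its 2-exon model and 5 in the model with the stem-loop. H2BC11 had 325 counts in a 2-exon model and 4 in a 1-exon model, neither of which holds the pattern. How reads common to several models were assigned is not given in the sources used here, so these counts do not measure the share of each form.

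Promoters of 61 of the 72 genes were matched by symbol in RefSeq (GRCh38.p14, 250 bases before to 50 bases after the start site). H2BC12, H2AC6 and H1-2 are printed because these 3 genes gave 48.8 to 73.7% of the histone reads in every library. Capitals mark the octamer ATTTGCAT, the CCAAT box, the TATA box TATAAA and the AC box AAACACA of H1 promoters, each searched on both strands. A TATAAA and its reverse complement TTTATA can overlap, as they do once in H2BC12.
H2BC12: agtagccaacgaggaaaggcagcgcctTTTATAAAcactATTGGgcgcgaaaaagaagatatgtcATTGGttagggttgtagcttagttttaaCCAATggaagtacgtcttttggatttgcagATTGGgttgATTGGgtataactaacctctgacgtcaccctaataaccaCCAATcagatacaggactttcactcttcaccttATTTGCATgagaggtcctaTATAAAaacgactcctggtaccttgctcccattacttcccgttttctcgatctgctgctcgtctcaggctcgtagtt
H2AC6: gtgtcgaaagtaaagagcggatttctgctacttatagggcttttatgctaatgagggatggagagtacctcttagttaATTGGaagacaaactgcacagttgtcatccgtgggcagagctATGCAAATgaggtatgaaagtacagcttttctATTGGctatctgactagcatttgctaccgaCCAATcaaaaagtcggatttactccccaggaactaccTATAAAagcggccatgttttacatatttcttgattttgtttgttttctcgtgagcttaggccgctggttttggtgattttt
H1-2: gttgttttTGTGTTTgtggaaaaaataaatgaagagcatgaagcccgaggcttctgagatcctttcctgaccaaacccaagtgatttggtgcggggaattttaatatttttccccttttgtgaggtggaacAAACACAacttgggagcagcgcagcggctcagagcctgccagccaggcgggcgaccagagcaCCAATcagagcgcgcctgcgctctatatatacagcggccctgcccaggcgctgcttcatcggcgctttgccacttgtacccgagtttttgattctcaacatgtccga

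The H2BC12 promoter (chr6:27146809-27147108, minus strand) held the octamer with its first base at -46 and a TATAAA at -27. The H2AC6 promoter (chr6:26123922-26124221, plus strand) held the octamer as ATGCAAAT at -130 and TATAAA at -31. The H1-2 promoter (chr6:26056421-26056720, minus strand) held neither, but held the AC box as AAACACA at -119 and as its reverse complement at -242. The octamer was in 11 of 14 H2A and 14 of 18 H2B promoters, in 1 of 10 H3 promoters and in 0 of 6 H1 and 0 of 13 H4 promoters. The H3 match was H3C4, whose octamer at -119 and CCAAT boxes lay at the same positions as those of H2AC7. The same promoter may therefore have been matched under both symbols. Over the whole set the octamer was in 42.6% of histone promoters and in 1.77% of all 35116 promoters of that length. TATAAA was in 65.6% against 11.5%, and the CCAAT box in 83.6% against 34.6%. The AC box was in 6 of 6 H1 promoters, and in 14.8% of all histone promoters against 5.64% of all promoters. A match describes these letters only.

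Levels were low and uneven across the families. Of the 37 genes in the gene table, 23 had enough reads to be tested: 5 H1, 5 H2A, 9 H2B, 4 H4 and no H3 gene. Of the other 14, 6 had 0 reads in every library and 8 had between 1 and 113 reads over all 24 libraries, against 155 to 16950 reads for those tested. The highest mean levels were 16.9 CPM for H2BC12, 15.02 CPM for H1-2 and 10.4 CPM for H2AC6, and the next was H2BC21 at 3.01 CPM. CPM levels are not comparable between genes of different length. H2BC12 shares 86.3% of its 31-base words with another gene, its near-identical copy H2BC12L on chromosome 21, and H4C11 shares 82.2%, so their values are uncertain. H1-2 shares 0.817% and H2AC6 1.80%.

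Summed over the 37 genes, histone RNA was 28.4, 124 and 90.1 CPM in the 3 WT libraries at 0 h (80.7 ± 48.3, SD, n = 3) and 24.2, 24.5 and 27.6 CPM in the KO libraries (25.4 ± 1.87, SD, n = 3). The KO libraries were tight, whereas the first WT library sat with them and the other two WT libraries sat far above. At 3 h the sums were 72.3, 71.6 and 65.6 CPM for the WT libraries, and for the KO libraries 61.0, 61.6 and 40.6 CPM. By 6 h these sums stood at 59.3, 64.7 and 64.6 CPM (WT), with 52.1, 53.8 and 58.4 CPM for KO cells. Every KO library was below every WT library at both times. At 48 h the WT libraries gave 68.5, 73.9 and 107 CPM and the KO libraries 56.4, 55.9 and 58.5 CPM, again without overlap. In bulk RNA, fewer cells in S phase and less histone RNA per cell cannot be told apart.

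**Figure D1:**
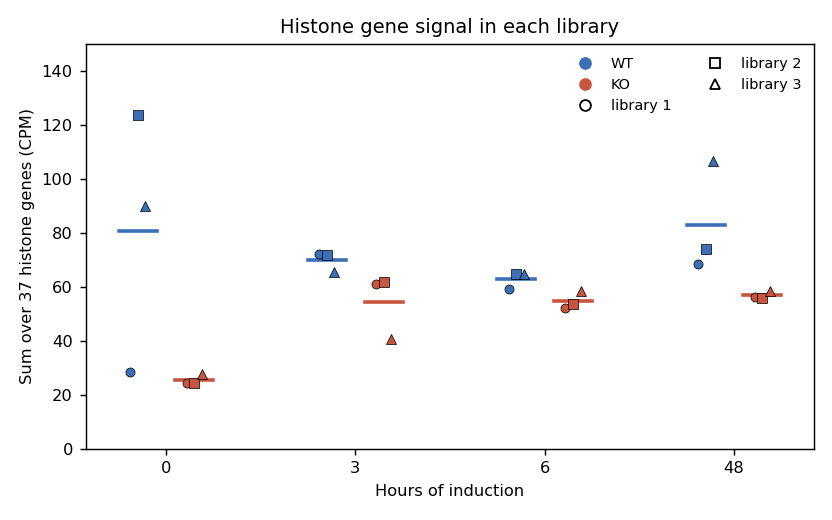
Summed CPM of the 37 histone genes in each library (y axis) by genotype and hours of induction (x axis); points are libraries and bars are group means. The KO libraries lie at 24.2 to 27.6 CPM at 0 h and at 40.6 to 61.6 CPM at 3 h, and the WT libraries at 0 h spread from 28.4 to 124 CPM.

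H2BC12, an H2B gene at chr6:27146418-27146798, was at 6.36, 32.1 and 21.7 CPM in WT against 4.25, 5.12 and 5.19 CPM in KO libraries at 0 h. It was then at 20.2, 20.8 and 19.5 CPM in WT against 14.5, 14.9 and 10.1 CPM in KO cells at 3 h, and at 20.7, 23.2 and 21.9 CPM in WT against 16.6, 17.5 and 19.1 CPM in KO cells at 6 h. At 48 h it was at 19.7, 20.3 and 28.6 CPM in WT against 14.5, 14.4 and 15.03 CPM in KO cells. The WT libraries were above the KO libraries at all 4 times with no overlap, although at 0 h the first WT library was above them by little. H1-2, a linker histone gene at chr6:26055787-26056428, was at 10.9, 37.4 and 32.8 CPM in WT against 5.69, 6.51 and 7.56 CPM in KO libraries at 0 h. At 3 h H1-2 was at 14.7, 16.3 and 12.9 CPM in WT against 11.1, 11.1 and 4.17 CPM in KO cells, and by 6 h at 11.3, 13.7 and 13.6 CPM in WT against 9.23, 9.71 and 9.97 CPM in KO cells. At 48 h it was at 18.9, 22.5 and 32.3 CPM in WT against 14.7, 16.8 and 16.7 CPM in KO cells. The genotypes did not overlap at any of the 4 times for this gene either.

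H2AC6, an H2A gene at chr6:26124145-26139116, was at 2.44, 18.95 and 8.78 CPM in WT against 1.87, 1.97 and 2.68 CPM in KO libraries at 0 h. Here the first WT library fell inside the KO range. After 3 h H2AC6 was at 14.7, 15.8 and 14.7 CPM in WT against 16.8, 16.2 and 11.8 CPM in KO cells, and after 6 h at 11.03, 10.5 and 12.1 CPM in WT against 11.4, 11.9 and 13.3 CPM in KO cells. The genotypes overlapped at both times. At 48 h the gene was at 9.84, 10.4 and 10.4 CPM in WT against 8.32, 6.42 and 7.50 CPM in KO cells, without overlap.

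**Figure D2:**
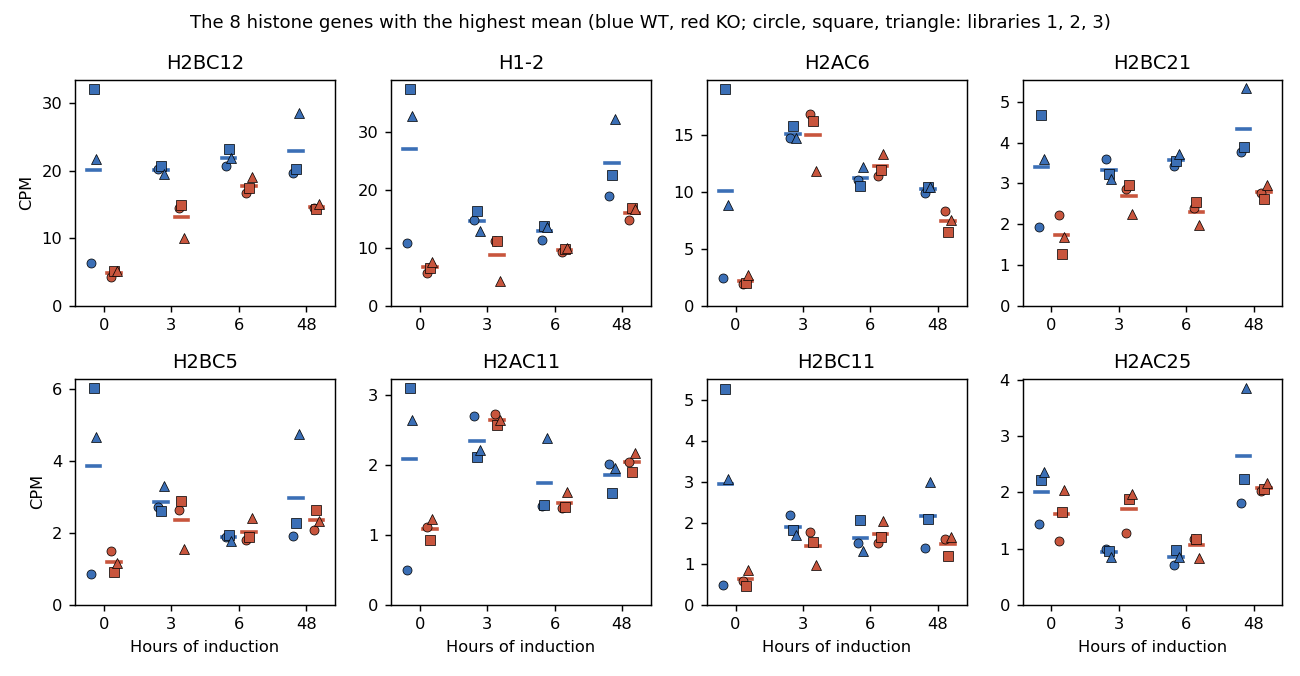
CPM per library (y axis) of the histone genes with the highest mean level, by genotype and hours of induction (x axis); points are libraries and bars are group means. H2AC6 lies at 1.87 to 2.68 CPM in KO cells at 0 h and at 11.8 to 16.8 CPM at 3 h, and H1-2 in WT cells is highest in 2 of the 3 libraries at 0 h.

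The next genes by level were H2BC21, H2BC5, H2AC11, H2BC11 and H2AC25. H2BC21 was at 1.92, 4.67 and 3.59 CPM in WT against 2.23, 1.27 and 1.68 CPM in KO libraries at 0 h, at 3.11 to 3.60 against 2.25 to 2.96 CPM at 3 h, at 3.42 to 3.72 against 1.97 to 2.55 CPM at 6 h, and at 3.76 to 5.34 against 2.63 to 2.95 CPM at 48 h. Its WT and KO ranges overlapped at 0 h only. H2BC5 was at 0.863, 6.02 and 4.68 CPM in WT against 1.49, 0.924 and 1.15 CPM in KO libraries at 0 h, and between 1.56 and 4.75 CPM in every later library. H2BC11 was at 0.474, 5.27 and 3.07 CPM in WT against 0.582, 0.449 and 0.839 CPM in KO libraries at 0 h, and between 0.972 and 3.00 CPM later. In both genes the first WT library lay within or below the KO range at 0 h, and the other two WT libraries lay above it. H2AC11 was at 0.496, 3.10 and 2.64 CPM in WT against 1.11, 0.924 and 1.23 CPM in KO libraries at 0 h, and at 2.11 to 2.69 CPM in WT and 2.57 to 2.72 CPM in KO cells at 3 h. At 6 h it was at 1.41 to 2.39 CPM in WT and 1.38 to 1.61 CPM in KO cells, and at 48 h at 1.60 to 2.02 and 1.89 to 2.16 CPM, and the genotypes overlapped at each of these times.

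Not all of the genes followed this course. H2AC25, an H2A gene outside the main cluster at chr1:228456979-228457873, was at 1.44, 2.22 and 2.37 CPM in WT against 1.14, 1.65 and 2.05 CPM in KO libraries at 0 h. In WT cells it was at 0.998, 0.958 and 0.854 CPM at 3 h, at 0.714, 0.971 and 0.856 CPM at 6 h. At 48 h these libraries gave 1.82, 2.25 and 3.86 CPM. In KO cells it was at 1.29 to 1.97, 0.836 to 1.18 and 2.02 to 2.16 CPM at these times. H4C16, an H4 gene that stands alone at chr12:14767999-14771131, was at 0.949, 4.82 and 3.78 CPM in WT against 2.18, 1.65 and 1.52 CPM in KO libraries at 0 h. It was at 0.929 to 1.45 CPM in WT and 0.670 to 1.00 CPM in KO cells at 3 h, and at 0.733 to 1.03 CPM in WT and 0.578 to 0.844 CPM in KO cells at 6 h. At 48 h it was at 1.32 to 2.48 and 1.38 to 2.10 CPM. The group means of both genes were lowest at 6 h in each genotype. H4C8, at chr6:26277609-26285638, was at 0.474, 1.97 and 1.22 CPM in WT against 0.632, 0.300 and 0.446 CPM in KO libraries at 0 h, at 1.58 to 2.17 against 0.951 to 1.29 CPM at 3 h, at 1.55 to 1.74 against 0.844 to 1.77 CPM at 6 h, and at 1.22 to 2.55 against 0.676 to 1.22 CPM at 48 h.

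Before induction, 5 of 23 histone genes were lower in KO than in WT cells and 0 were higher, where 6.52% of all 19835 genes tested were lower and 8.77% higher (15.3% in either direction, limma). Fold changes are log2 differences of CPM + 0.25, a scale that understates changes of low genes. H1-2 was lower by 3.40-fold (log2 -1.77 ± 0.33, SE, adjusted p = 0.0011), H2BC12 by 3.17-fold (-1.67 ± 0.32, adjusted p = 0.0012) and H2AC6 by 3.12-fold (-1.64 ± 0.37, adjusted p = 0.0043). H2BC11 was lower by 2.67-fold (-1.41 ± 0.43, adjusted p = 0.030) and H2BC21 by 1.72-fold (-0.78 ± 0.22, adjusted p = 0.020). Of the other 18, H4C8 and H2BC5 had log2 differences of -0.89 and -1.14 that missed the threshold (adjusted p = 0.056 and 0.060). The median of the 23 log2 differences was -0.48 against 0.01 over all genes, and 20 of the 23 were negative. On the recovered reads edgeR and DESeq2 each called 7 lower. The calls of H1-2, H2BC12 and H2AC6 held in 34 of 35 alternatives and that of H2BC11 in 27 of 34.

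The first WT library weighed on this comparison. All 3 WT libraries were above all KO libraries in 2 of 23 genes (12% of all genes), and the second and the third WT libraries were above all KO libraries in 14 of 23 (28.1% of all genes). Without the first WT library 14 of 24 genes were lower in KO cells and 0 higher, where 16.5% of all genes were lower, and the differences grew to -2.35 for H1-2, -2.36 for H2BC12, -2.43 for H2AC6, -2.29 for H2BC11 and -1.94 for H2BC5. Without the second WT library 3 were lower, namely H1-2 (-1.45), H2BC12 (-1.19) and H2AC6 (-0.99), where 3.08% of all genes were lower. Leaving out the third WT library or the second KO library also left 3. When the 6 libraries at 0 h were fitted alone, 0 histone genes were called, 4 of 16 had an unadjusted p under 0.05, and 1.06% of all genes were called.

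**Figure D3:**
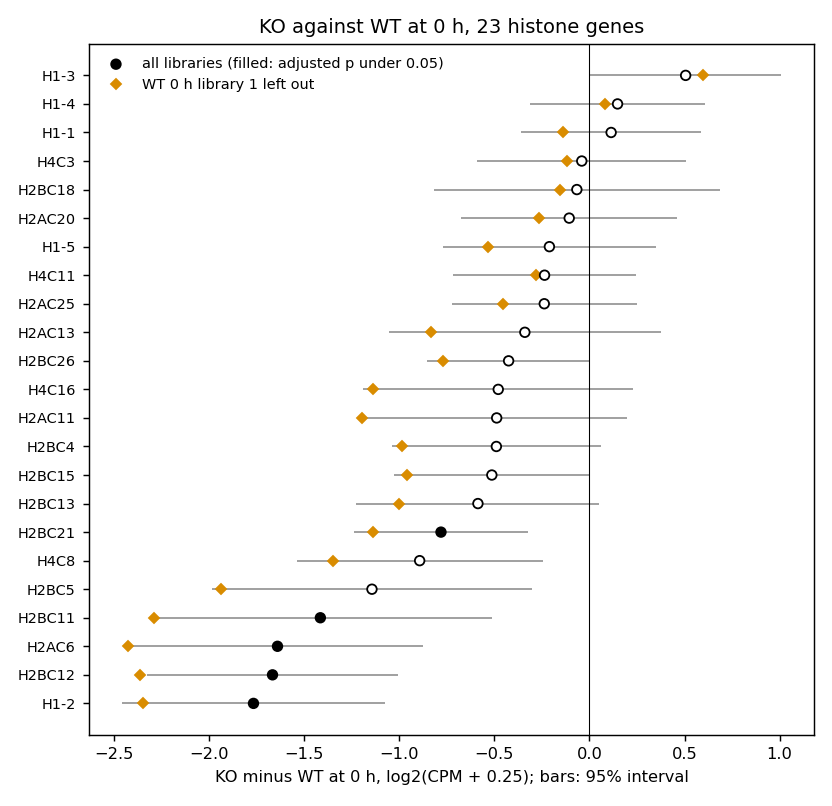
Log2 difference of KO minus WT at 0 h with its 95% interval (x axis, limma) for each of the 23 tested histone genes (y axis), with all libraries and without the first WT library. H1-2, H2BC12 and H2AC6 lie at -1.77, -1.67 and -1.64 with all libraries and move to -2.35, -2.36 and -2.43 without that library.

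During induction 0 of 23 histone genes differed between KO and WT at any of the later times. Of all genes 2.78% differed at 3 h (0.862% higher, 1.92% lower in KO cells), 2.45% at 6 h (0.555% higher, 1.9% lower) and 11.9% at 48 h (6.86% higher, 5.07% lower). An unadjusted p under 0.05 was reached by 3, 1 and 5 genes, and edgeR and DESeq2 on the recovered reads also called 0 at each time. The median log2 differences were -0.25, -0.10 and -0.32, against 0.02, 0.01 and -0.01 over all genes. The KO libraries lay below all WT libraries in 7 genes at 3 h, 3 at 6 h and 6 at 48 h (10.6%, 13.9% and 17.9% of all genes), and above all WT libraries in 2, 1 and 0 genes (13.1%, 15.9% and 18.3% of all genes). H2AC25, with 1.29 to 1.97 CPM in KO against 0.854 to 0.998 CPM in WT cells, was among the genes above at 3 h. Without the first WT library at 0 h, 2 genes were lower at 3 h (H1-2 at -0.86 and H2BC12 at -0.65), 1 at 6 h (H2BC21 at -0.58) and 3 at 48 h (H2BC12 at -0.57, H2BC21 at -0.54 and H2BC4 at -0.52), where 3.8%, 3.23% and 7.08% of all genes were lower. Without the first WT library at 0 h, the third KO library at 3 h and the third WT library at 48 h together, 1 gene was higher (H2AC25 at 0.61) and 2 lower at 3 h, 0 higher and 3 lower at 6 h, and 1 higher (H1-3 at 0.74) and 1 lower at 48 h, where 9.19%, 12.1% and 23.8% of all genes were called. Without the third KO library at 3 h alone, or the third WT library at 48 h alone, 0 were called at the time of that library, where 2.21% and 8.82% of all genes were called.

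In KO cells more histone genes rose than fell after induction. At 3 h 6 of 23 rose and 2 fell, where 33.1% of all genes rose and 32.6% fell (65.7% changed). H2AC6 rose 6.47-fold (log2 2.69 ± 0.37, adjusted p = 1.2e-06), H2BC12 rose 2.69-fold (1.43 ± 0.32, adjusted p = 0.00045), H2AC11 rose 2.24-fold (1.16 ± 0.33, adjusted p = 0.0037) and H4C8 rose 2.08-fold (1.05 ± 0.31, adjusted p = 0.0051). H2AC13 and H2BC21 also rose, and H1-3 (-0.78) and H4C16 (-0.82) fell. Without the third KO library at 3 h, which held 0.130 CPM of H1-3 against 0.334 and 0.515 CPM in its mates, 10 of 24 genes rose and 0 fell, where 32.2% of all genes rose and 32% fell. H1-3 was then at -0.50 (adjusted p = 0.077) and H4C16 at -0.69 (adjusted p = 0.13), and H1-2 was among those that rose (0.79). Without all 3 libraries that stood apart 14 of 23 rose and 2 fell, where 36.9% and 36.6% of all genes did. At 6 h 6 rose and 1 fell, where 33.4% of all genes rose and 35.1% fell (68.5% changed). H2AC6 was 5.5-fold (2.46 ± 0.37, adjusted p = 3.6e-06) and H2BC12 3.75-fold above 0 h (1.91 ± 0.32, adjusted p = 1.5e-05), H2BC11 rose by 1.27 and H4C8 by 1.11 on the log2 scale, and H4C16 fell by 1.01 on that scale (adjusted p = 0.012).

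At 48 h 7 of 23 were above 0 h in KO cells and 0 below, where 25.4% of all genes were higher and 27.4% lower (52.8% in all). H2AC6 was at 1.61, H2BC12 at 1.49 and H1-2 at 1.21 log2 units above 0 h, and H2AC13, H4C8, H4C11 and H2BC21 were between 0.59 and 0.91 above. The counts of higher genes, 6, 6 and 7 of 23, were thus near the background share of rising genes. KO libraries after induction were all above the 0 h KO libraries in 12 genes at 3 h, 12 at 6 h and 15 at 48 h (33.7%, 38.3% and 35.4% of all genes). Without the first WT library the genes that rose numbered 11, 10 and 13 at the 3 times, where 33.7%, 34.6% and 30.8% of all genes rose. The rises of H2AC6 and H2BC12 at 3, 6 and 48 h and of H1-2 at 48 h passed the threshold under all 35 alternatives run for each.

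**Figure D4:**
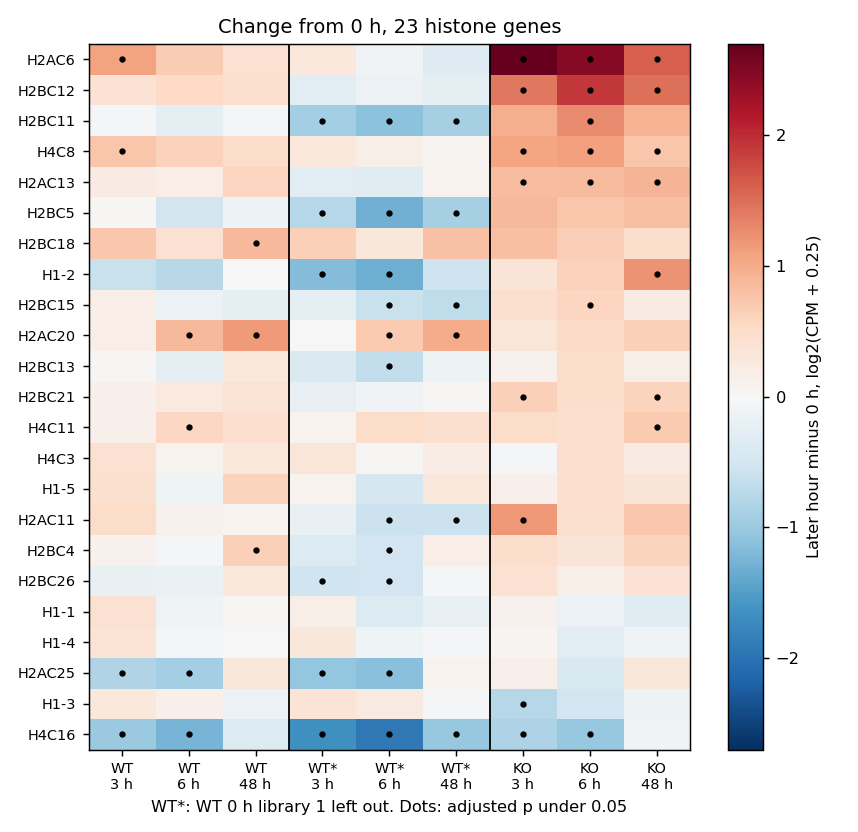
Log2 change from 0 h (color) of each tested histone gene (rows) at 3, 6 and 48 h in WT cells, in WT cells without the first 0 h library (WT*) and in KO cells (columns), with dots for adjusted p under 0.05. H2AC6 has the largest rise, 2.69 at 3 h in KO cells, and H2BC5 and H1-2 are lower after induction in the WT* columns at 6 h (-1.29 and -1.33).

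In WT cells few histone genes changed, and the direction depended on which 0 h library was in the fit. At 3 h 2 of 23 rose and 2 fell, where 28.6% of all genes rose and 27.1% fell (55.7% changed): H2AC6 by 1.08 and H4C8 by 0.75 upward, H2AC25 by -0.82 and H4C16 by -0.995. At 6 h 2 rose and 2 fell, where 31.1% rose and 31% fell (62.1% changed): H2AC20 by 0.88 and H4C11 by 0.56 upward, H2AC25 by -0.91 and H4C16 by -1.26. At 48 h 3 rose and 0 fell, where 26.8% rose and 26.5% fell (53.3% changed): H2AC20 by 1.15, H2BC18 by 0.88 and H2BC4 by 0.65. H2AC20 and H2BC18 were at or below 1.55 CPM in every library, and their 48 h means rest in part on the third WT library, which held 1.2 CPM of H2AC20 and 1.55 CPM of H2BC18, against 0.439 to 0.448 and 0.129 to 0.174 CPM in its mates. Without that library 1 gene rose at 48 h, H2AC20 by 0.79, where 24.2% of all genes rose. H2BC4 was at 0.388, 1.32 and 1.66 CPM at 0 h, against 1.32, 1.60 and 2.43 CPM at 48 h, which overlap. Its call held in 18 of 34 alternatives, and those of H2AC6 and H4C8 at 3 h held in 28 of 35 and 12 of 34. Without the 3 libraries that stood apart, the H2BC4 change was -0.05.

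Without the first WT library at 0 h, 0 histone genes rose and 6 fell at 3 h, 1 rose and 10 fell at 6 h, and 1 rose and 5 fell at 48 h. Shares of all genes that fell were then 28.9%, 32.1% and 29%. Those that fell included H1-2, by -1.18 at 3 h and -1.33 at 6 h, H2BC5, by -0.77, -1.29 and -0.90 at the 3 times, and H4C16, by -1.65, -1.92 and -1.02. Without the second WT library instead, 7 rose and 1 fell at 3 h, 6 rose and 2 fell at 6 h, and 9 rose and 0 fell at 48 h, with shares of all genes that rose of 27.2%, 29.7% and 24.6%. H2AC6 then rose by 1.73, 1.34 and 1.06 and H2BC12 by 0.86, 1.01 and 0.90. The calls of H2AC6, H2BC12 and H1-2 in WT cells thus differed with the 0 h libraries in the fit. The fall of H2AC25 at 6 h passed the threshold in all 34 alternatives, and that at 3 h in 33 of 34 (not in transcript counts). The fall of H4C16 at 6 h passed in 33 of 34 (not when only the groups compared were fitted), and that at 3 h in 29 of 34.

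The difference between the 2 time courses was tested as an interaction, the KO change minus the WT change. At 6 h 1 of 23 genes was called, H2AC6, which rose more in KO than in WT cells by 1.77 ± 0.52 log2 units (adjusted p = 0.036), where 3.12% of all genes were positive and 5.46% negative (8.58% in all). At 3 h and 48 h 0 were called, with an unadjusted p under 0.05 in 5 and 3 genes, where 9.04% of all genes were called at 3 h (3.59% positive, 5.45% negative) and 7.75% at 48 h (3.83% positive, 3.92% negative). On the recovered reads edgeR called 1, 4 and 0 and DESeq2 called 2, 5 and 1 genes at 3, 6 and 48 h. The H2AC6 call at 6 h held in 23 of 35 alternatives, with adjusted p from 5.7e-09 to 0.134, and ended among others without the second or the third WT library at 0 h. Without the first WT library 10 genes were positive and 1 negative at 3 h, 12 and 0 at 6 h, and 8 and 0 at 48 h, where 12.1%, 12.2% and 14.4% of all genes were positive. Without the third KO library at 3 h 2 were positive and 0 negative at 3 h (H2AC6 at 1.77 and H1-2 at 1.38), where 3.82% of all genes were positive. With the first WT library at 0 h left out instead, H2AC6 differed by 2.38, 2.56 and 2.02 and H2BC12 by 1.71, 2.07 and 1.79 at the 3 times. The KO against WT comparison at 0 h and each interaction share the 0 h libraries of both genotypes.

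The genes held only in the transcript table include 8 of the 15 H3 and 11 of the 15 H4 genes. Summed per gene and tested with edgeR, 49 of the 72 genes had enough counts, 24 of them absent from the gene table. At 0 h 8 of the 49 were lower in KO than in WT cells and 0 higher, where 2.24% of all 18807 genes were lower and 2.56% higher, and 4 of the 8 were in the transcript table only. These were the H4 gene H4C14 (-2.55), the H3 genes H3C8 (-2.81) and H3C6 (-1.31) and the H2A gene H2AC8 (-1.22). H4C14 shares 98.6% of its 31-base words with other genes, so its counts are uncertain, whereas the other 3 share at most 4.82%. H4C14 had 26, 205 and 112 counts in WT and 14, 18 and 23 in KO libraries. H3C6, whose stem-loop is printed above, had 12, 45 and 38 counts in WT and 9, 10 and 17 in KO libraries at 0 h. The first WT library was again the lowest of its group. Without it 25 of 51 genes were lower and 0 higher, where 5.66% of all genes were lower, with H3C8 at -3.40, H3C6 at -1.74 and H2AC8 at -1.57. At 3, 6 and 48 h 0, 0 and 1 genes differed between genotypes (0.899%, 0.824% and 1.99% of all genes were lower), the last being H4C4 (-2.16). An unadjusted p under 0.05 was reached by 26 of the 49 genes at 0 h, 4 at 3 h, 1 at 6 h and 15 at 48 h. Without the third WT library at 48 h 0 of 50 were called at 48 h, where 2.81% of all genes were called.

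After 48 h 22 of 49 genes were higher than at 0 h in KO cells and 15 of 49 in WT cells, with 0 lower in either, where 19.8% and 19.5% of all genes were higher. The WT count rested on 2 libraries: without the third WT library at 48 h 4 of 50 were higher and 0 lower (15.4% of all genes higher), and without the first at 0 h 6 of 51 were higher and 1 lower (21.1% higher). Of the genes in the transcript table only, 11 and 9 of 24 were higher. HIST2H2AA4 was 3.27 log2 units higher in KO and 2.69 in WT cells. It shares 97.2% of its 31-base words with other genes, and is uncertain. H3C6 was higher by 2.09 in KO and 0.86 in WT cells, and H4C14, which is uncertain, by 2.45 in KO cells. The WT value of H3C6 was 0.47 without the first library at 0 h (adjusted p = 0.13). At 3 h 16 of 49 rose and 2 fell in KO cells and 2 rose and 2 fell in WT cells (25.4% and 17.4% of all genes rose), and at 6 h 14 rose and 2 fell in KO and 2 rose and 5 fell in WT cells (24.1% and 20.1% rose). H3C6 had 129, 111 and 89 counts in WT and 71, 65 and 57 in KO libraries at 3 h. The interaction was called for H4C14 at 3 h (2.41) and for H4C14 (2.54), H2AC6 and H2BC12 at 6 h, where 0.713% and 0.537% of all genes were positive. Of these, H4C14 and H2BC12 share 98.6% and 86.3% of their 31-base words with other genes, so the call at 3 h rests on an uncertain gene. H2AC6 had only 2, 18 and 5 transcript counts in WT and 1, 0 and 1 in KO libraries at 0 h. Its call in these counts therefore rests on very few reads. When the first WT library was left out 9, 10 and 9 of 51 genes were positive at 3, 6 and 48 h and 0 negative, where 2.72%, 2.68% and 4.62% of all genes were positive. The 35 genes summed to 24.9, 129 and 83.8 transcript counts, scaled as CPM, in WT and 30.2, 31.3 and 35.4 in KO libraries at 0 h, and to 112, 110 and 217 in WT and 85.9, 84.1 and 91.7 in KO libraries at 48 h.

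Other RNAs without a poly(A) tail were read beside the histone genes. Of a list of 27 small nuclear, small nucleolar, vault, Y and other such RNAs, 20 were in the gene table and 8 could be tested, with 0 called between KO and WT at any time. At 0 h 3 of the 8 were lower in KO cells once the first WT library was left out, where 16.5% of all genes were lower. Their summed level was 6.36, 38.8 and 10.5 CPM in the WT libraries at 0 h and 7.74 to 8.13 CPM in the KO libraries. It was 29.6 CPM in the third WT library at 48 h and 12.2 and 14.5 CPM in its mates. The libraries with the most of these RNAs, the second WT library at 0 h and the third WT library at 48 h, were also those with the most histone RNA, at 124 and 107 CPM. SNORD3A, the U3 small nucleolar RNA, made 27.6 CPM of the first of these sums, against 2.5 and 3.15 CPM in its mates, and RMRP made 10.1 CPM of the second. RNY3, SNORD118 and VTRNA1-2 were at 0 reads in every library. The histone sum in the third WT library at 0 h was 90.1 CPM at a tail-lacking sum of 10.5 CPM, within the 8.34 to 17.3 CPM seen in the libraries at 3 and 6 h. The part of carry-over of untailed RNA in the histone differences was not tested.

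**Figure D5:**
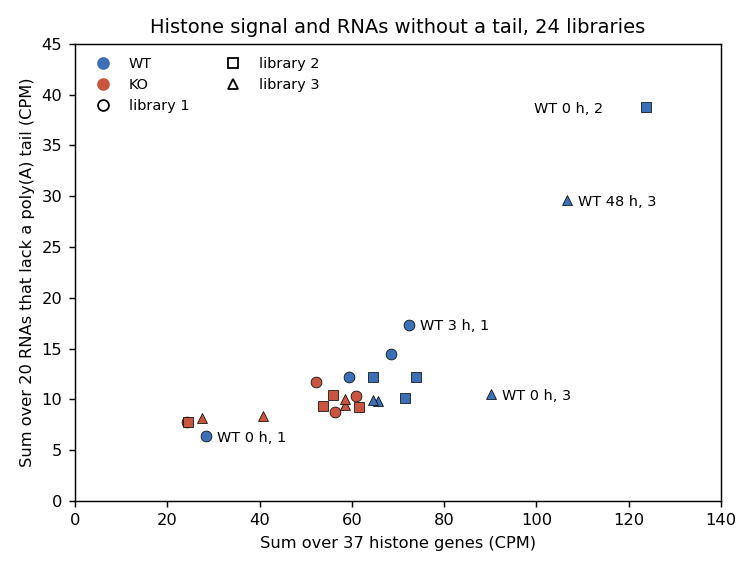
Summed CPM of RNAs that lack a poly(A) tail (y axis) against summed CPM of the 37 histone genes (x axis), 1 point per library, by genotype and library number. The second WT library at 0 h (38.8 and 124 CPM) and the third WT library at 48 h (29.6 and 107 CPM) lie far above the others. The third WT library at 0 h is high in histone RNA at 10.5 CPM of tail-lacking RNA.

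Genes of S phase, when histone messages are made, moved in part with the histone genes. At 0 h 13 of 28 tested S phase genes were lower in KO than in WT cells and 0 higher, with a median of -0.31, where 6.52% of all genes were lower. Leaving out the first WT library gave 18 lower and 1 higher, where 16.5% of all genes were lower and 16.5% higher. Among them was PCNA (-0.55), the sliding clamp of DNA polymerases. Their summed level was 3119, 3801 and 3529 CPM in WT and 2640 to 2841 CPM in KO libraries, and the first WT library was again the lowest of its group. At 3 h 21 of 28 rose and 1 fell in WT cells, and 24 rose and 0 fell in KO cells, where 28.6% and 33.1% of all genes rose, and the interaction at 6 h was positive for 12 and negative for 0, where 3.12% of all genes were positive. The WT rise of this list, 3119 to 3801 CPM at 0 h and 4949 to 5095 CPM at 3 h, was without overlap, whereas the histone sum in WT cells overlapped between those times. At 3 and 6 h the S phase sums were 5064 to 6017 and 6030 to 6163 CPM in KO libraries. The WT libraries gave 4949 to 5095 and 5883 to 6051 CPM, although every KO histone sum at these times was below every WT one. At 48 h both sums were lower in KO cells, with 3759 to 3839 against 4030 to 4098 CPM for S phase. The third KO library at 3 h had the lowest histone sum after induction (40.6 CPM) but the highest 3 h S phase sum. The part of S phase share in the histone differences was not tested.

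Factors that make and process histone messages were read next. SLBP, which binds the stem-loop, was not called between KO and WT at 0 h (log2 -0.05, adjusted p = 0.80), with 33.3, 37.7 and 33.4 CPM in WT against 30.3, 31.9 and 35.1 CPM in KO libraries. It rose at 3 h by 0.48 in WT and 0.71 in KO cells. NPAT, the coactivator that cyclin E and CDK2 phosphorylate at histone loci, was not called at 0 h either (0.10, adjusted p = 0.52) and rose at 3 h by 0.91 in WT and 0.77 in KO cells. These 2 genes were named for their role. Of all genes 8.77% were higher and 6.52% lower in KO cells at 0 h, and at 3 h 28.6% rose and 27.1% fell in WT cells and 33.1% rose and 32.6% fell in KO cells. Of 17 genes of histone 3′ end processing and turnover, 1 was higher in KO cells at 0 h (LSM11, a U7 snRNP protein, by 0.57) and 1 lower (NCBP2 of the cap-binding complex, at -0.32), 10 rose and 2 fell at 3 h in WT cells, and 10 rose and 3 fell in KO cells. Of 10 genes of histone gene transcription, 1 was higher in KO cells at 0 h (CCNE2, a cyclin E, by 0.67), and 5 rose and 2 fell at 3 h in each genotype. Of 13 genes of ordinary cleavage and polyadenylation, 1 was higher and 2 lower in KO cells at 0 h, and 7 rose and 1 fell at 3 h in WT and 9 rose and 1 fell in KO cells. In the fit without the first WT library 5 of the 17, 2 of the 10 and 6 of the 13 were lower in KO cells at 0 h and 1, 2 and 0 higher, where 16.5% of all genes were lower and 16.5% higher.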

How the data were processed

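Poly(A)-selected, stranded mRNA libraries were sequenced from 24 samples in 8 groups of 3. The authors' deposited gene table holds CPM, scaled to each library's total and not to gene length. Genome build hg38 and DESeq2 are named in the submitters' processing notes, while aligner and counter are not given in the sources used here. Column names of the gene table sit 1 cell out of place. Once realigned, each of the 24 libraries matched its namesake in the transcript table best (r 0.964 to 0.996 over 1192 genes), and 0 did before. Low CPM values are whole multiples of 1 read, and all values came out whole within 0.1 read, giving 29896358 to 50451908 reads per library. The deposited transcript table holds raw counts per transcript, 22.1 to 26.4% of those reads. Gene symbols were the current ones where known and otherwise those of GENCODE 29, which held 52338 of the 57820 gene IDs (90.5%).

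Log2 values of TMM-scaled CPM + 0.25 were tested with limma 3.58.1 (trend) in R 4.3.3, with all 8 groups in 1 fit, over 19835 genes kept by a read filter (at least 10 reads in a group's worth of libraries and 15 in all), for 13 comparisons. A call is a Benjamini-Hochberg adjusted p under 0.05 over all genes tested. Alternatives were edgeR 4.0.16 and DESeq2 1.42.0 on the recovered reads, RLE factors, CPM as deposited, a pseudocount of 1, no filter (38005 genes), a stricter filter of 5 CPM in 3 or more libraries (12376 genes), fits of only the groups compared, the replicate block, each library left out in turn or the 3 that stood apart at once, and gene sums of the transcript counts in edgeR (18807 genes). After the data were seen, transcript counts and gene lists were also fitted without the libraries that stood apart. Tested on simulated data for KO against WT at 0 h over 19169 genes, the fit found 43.1%, 71.2% and 93.8% of genes changed 1.5-, 2- and 4-fold, with 13 false among 149 calls. No simulated library stood apart from its group, so these rates may not hold for the real 0 h libraries.

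Values are given by library for the 8 histone genes with the highest mean CPM and for up to 4 largest called changes in each direction with a group mean of at least 1 CPM. Other lists are named by up to 4 genes with the smallest adjusted p, some of which are not reported here. The histone genes, the lists and the libraries left out were chosen with earlier results of these data known.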

Additional observations from a re-analysis of the deposited data

Results flagged for a closer look

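H2AC6 rose more from 0 h to 6 h in KO than in WT cells, and the difference between these 2 changes was 1.77 log2 units by a test of the interaction (limma adjusted p = 0.036). The KO libraries went from 1.87 to 2.68 CPM to between 11.4 and 13.3 CPM, and the WT libraries from 2.44, 18.95 and 8.78 CPM to between 10.5 and 12.1 CPM. The levels of the genotypes overlapped at 6 h.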

How the results depend on the processing

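Under RLE factors, a pseudocount of 1 and the replicate block, the counts of called histone genes stayed within 1.5 times those reported in all 13 comparisons. Counts are given for KO against WT at 0, 3, 6 and 48 h, WT and then KO at 3, 6 and 48 h against 0 h, and the interaction at 3, 6 and 48 h. Leaving out 1 library gave 3 to 14, 0 to 2, 0 to 1 and 0 to 3 between genotypes, 2 to 8, 3 to 11 and 1 to 9 in WT, 4 to 13, 4 to 11 and 4 to 13 in KO, and 0 to 11, 0 to 12 and 0 to 8 for the interaction. Without the 3 libraries that stood apart, the counts were 15, 3, 3 and 2, then 9, 11 and 8, 16, 18 and 14, and 15, 17 and 12. With at least 5 CPM in 3 libraries, which keeps fewer histone genes, they were 3 for KO against WT at 0 h, 1, 1 and 0 in WT and 2, 2 and 3 in KO cells. Fitting only the groups compared gave 0 at 0 h, 3 at 6 h and 2 at 48 h between genotypes, 1, 2 and 1 in WT, 12 at 6 h and 12 at 48 h in KO cells and 0 for the interaction at 6 h. No filter gave 1 for KO against WT at 48 h, 2 for WT at 3 h and 0 for the interaction at 6 h. For the interaction at 3 and 6 h edgeR gave 1 and 4 and DESeq2 gave 2 and 5, and CPM as deposited gave 1 at 3 h. DESeq2 also gave 1 for the interaction at 48 h and 12 for KO at 48 h. Transcript counts of these genes gave 2 and 6 for WT at 3 and 48 h, 11 for KO at 48 h and 2 for the interaction at 6 h. With each of the 3 libraries that stood apart left out in turn, an alternative chosen after seeing the data, the transcript table gave 9 to 25, 0, 0 and 0 to 4 between genotypes, 4 to 6, 8 to 13 and 4 to 16 in WT, 18 to 21, 18 to 23 and 22 to 26 in KO cells, and 2 to 9, 4 to 10 and 1 to 9 for the interaction. The causes were not tested. Group means relative to all 24 libraries were also compared between the CPM sum of the 37 genes and transcript counts of genes without near-identical copies. From the first to the second they moved from 0.417 to 0.525 in KO at 0 h and from 1.03 to 0.909 in WT at 6 h. In KO cells they moved from 0.898 to 0.774 at 6 h and from 0.933 to 0.996 at 48 h. The 2 measures differ in both the deposited values and the genes used. For single genes, 1 of 272 alternative values that kept every group reversed, H2BC4 at 48 h in WT cells without the 3 libraries apart (-0.048), and 34 ended a call. Of 624 that left out 1 library, 52 ended a call and 0 reversed. Same-numbered libraries correlated between -0.183 and 0.0592 in their deviations from group means, so the numbers do not pair the libraries, and with the replicate block the genotype counts were 5, 0, 0 and 0. At these depths most histone genes lay within a few CPM, and H3 genes in the gene table were too low to test.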

Other observations

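Variant histones, many of which are made throughout the cell cycle from polyadenylated messages, were as a group far more abundant in these libraries than the replication-dependent genes. H2AZ1 gave 410, 629 and 553 CPM for the WT libraries at 0 h, against 278, 311 and 311 CPM for KO cells. Of 11 tested variant genes 3 were lower in KO cells at 0 h and 0 higher, where 6.52% of all genes were lower: H2AZ1 (-0.75), MACROH2A1 (-0.45) and H2AZ2 (-0.35). With the first WT library left out 4 were lower and 2 higher, where 16.5% of all genes were lower and 16.5% higher. At 3 h 7 rose and 1 fell in each genotype, where 28.6% of all genes rose in WT and 33.1% in KO cells, and MACROH2A1, a repressive H2A variant, rose by 1.41 in WT and 2.12 in KO cells. MACROH2A2 rose from 0 h to 48 h by 4.57 in WT and 3.75 in KO cells, and its interaction at 48 h was not called (-0.82, limma adjusted p = 0.26). At 0 h MACROH2A2 was at 21.2, 5.37 and 5.55 CPM in WT against 8.55, 9.06 and 9.23 CPM in KO libraries. Its WT rise and this interaction therefore depend in part on the first WT library.

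Of 19 histone chaperone genes 5 were lower in KO cells at 0 h and 0 higher, where 6.52% of all genes were lower, among them HAT1 (-0.47), which acetylates new H4, ASF1B (-0.51) and NASP (-0.40), which carry H3 and H4. These counts were 10 and 1 without the first WT library, where 16.5% of all genes were lower and 16.5% higher. At 3 h 8 rose and 1 fell in WT cells and 11 rose and 0 fell in KO cells, where 28.6% and 33.1% of all genes rose, with ASF1B higher by 0.78 and 1.39. Of 21 genes of G2 and mitosis 0 were higher and 5 lower in KO cells at 0 h, and at 3 h 4 rose and 11 fell in WT cells and 6 rose and 9 fell in KO cells, where 27.1% and 32.6% of all genes fell. At 0 h 7 of these were lower in KO cells and 1 higher without the first WT library.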
